A study of Mus musculus with 3 samples.

Results

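Fibroblasts of the mouse vomeronasal organ (VNO) were examined as 975 cells of the 13353 that passed quality filters in 3 single-cell RNA-seq libraries. A cell was taken as a fibroblast when it held at least 3 unique molecular identifiers (UMIs, counted RNA molecules) of Dcn, at least 0.3% of its UMIs in Dcn, Lum and Col3a1 together, at most 0.1% in the bone genes Ibsp, Bglap and Bglap2, and at most 2 UMIs of the pericyte gene Rgs5. The cells were therefore chosen by measured values, and the levels of these 7 genes are given only as a description. The P10 control library came from OMPCre Heterozygous males at postnatal day 10, which carry Cre recombinase under the olfactory marker protein gene. The P10 mutant library came from OMPCreR26AP2e Double Heterozygous males of that age, which carry the same Cre and, from the Rosa26 locus, a transgene for the transcription factor AP-2ε (gene Tfap2e). The 3-month mutant library came from adult males of the latter genotype. All 3 were on a mixed C57 BL/6J and 129P2/OlaHsd background. The Omp gene that drives the Cre is a gene of mature olfactory and vomeronasal neurons. No control at 3 months was analysed here. Each group had 1 library, for which the number of animals is not given in the labels, so no difference has a replicate check and no test between groups was possible. Age, library and version of the counting software cannot be told apart.

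Fibroblasts are the connective tissue cells that make and turn over the extracellular matrix. They secrete fibrillar collagens, which carry tension, and elastin, which is laid down on a scaffold of fibrillin microfibrils. In the VNO they lie between the sensory epithelium, the blood vessels and the bony capsule, and in many organs fibroblasts also secrete growth factors, complement proteins and chemokines that act on neighbouring cells.

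The P10 control held 271 fibroblasts, which were 6.30% of its kept cells (95% Clopper-Pearson interval 5.59 to 7.06%). The P10 mutant held 259, or 6.92% (6.13 to 7.78%), and the 3-month mutant 445, or 8.39% (7.65 to 9.16%). The intervals of the P10 libraries overlapped, and that of the 3-month library lay above the P10 control only. The fibroblasts held 3149282, 2971082 and 4653833 UMIs in the order P10 control, P10 mutant and 3-month mutant, an order kept for all values below. Their median depth was 11178, 10744 and 9804 UMIs per cell, and their median mitochondrial share was 5.33, 5.98 and 4.09%. Pairs of libraries had between 21 and 30 barcodes in common by name, none of them shared by fibroblasts of both. Intervals throughout are 95% intervals that cover counting error only.

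Near the limits of the rule, 14, 10 and 4 fibroblasts had exactly 3 Dcn UMIs, and 21, 14 and 7 otherwise passing cells had exactly 2. Cells whose share of Dcn, Lum and Col3a1 lay between 0.3 and 0.4% numbered 28, 16 and 47, and otherwise passing cells with 0.2 to 0.3% numbered 19, 23 and 65. The median fibroblast held 16, 14 and 63 Dcn UMIs. Cells that failed only the Dcn minimum numbered 99, 51 and 12. Those that failed only the share of Dcn, Lum and Col3a1 numbered 199, 134 and 301. The fibroblast shares above therefore depend on the levels of the rule's own genes, and their difference between ages cannot be read as a difference in cell number. Levels are given as CPM, the UMIs of a gene summed over a library's fibroblasts and scaled to their total. Dcn, a proteoglycan that binds collagen fibrils, stood at 2270, 1887 and 9778 CPM. Lum, a proteoglycan of the same family, stood at 1794, 1392 and 2134 CPM. Col3a1, the chain of type III collagen, stood at 4550, 5089 and 1472 CPM. Among the cells chosen with these genes, Dcn was highest and Col3a1 lowest at 3 months. As the rule uses both genes, this describes the chosen cells and is not a result about age.

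Genes that were not used by the rule were checked against the label. Mgp, which inhibits calcification of matrix, was at 4768, 5168 and 14434 CPM in fibroblasts and at 284, 329 and 636 CPM in the remaining cells. Sfrp2, a secreted modulator of Wnt signaling, was at 4878, 5849 and 1817 CPM against 255, 239 and 86.7 CPM. Apod, a secreted lipid carrier, was at 191, 137 and 6314 CPM against 5.77, 7.08 and 212 CPM. All 3 were higher in fibroblasts than in the other cells of every library. Genes with a mean of at least 100 CPM in fibroblasts were ranked by the smallest of their 3 ratios to the remaining cells. Dpt, which encodes the matrix protein dermatopontin, came first. Its level was 332, 463 and 542 CPM against 5.12, 5.86 and 5.24 CPM, a ratio of at least 64.8 in each library. Dpep1, a membrane dipeptidase, followed with a lowest ratio of 59.0, then the microfibril protein Mfap5 (53.3), Angptl1 (47.7) and elastin, Eln (35.6). Mfap4, an elastin-binding protein, had a lowest ratio of 30.9. Dpt and Dpep1 were within 2-fold among the 3 libraries.

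**Figure D1:**
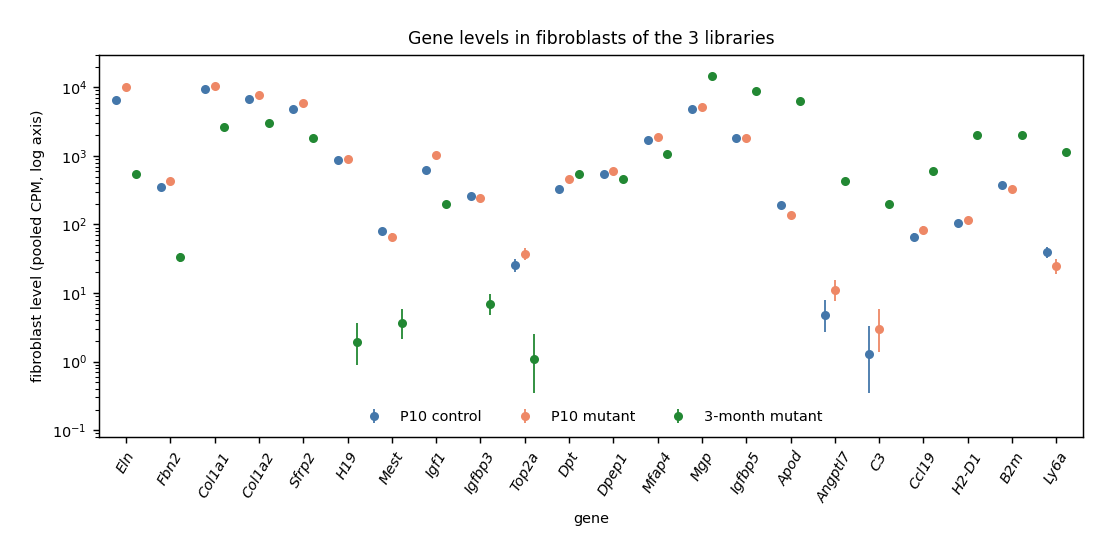
Levels of 22 genes in fibroblasts on a log axis of pooled CPM, with 1 point per library (P10 control, P10 mutant, 3-month mutant) and bars for 95% Poisson intervals of counting error. The P10 points lie close together for most genes, while the 3-month point lies far below them for H19, Igfbp3 and Eln and far above them for Apod, C3, Angptl7 and H2-D1, and near them for Dpt, Dpep1 and Mfap4.

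Between the ages, a gene was counted as higher or lower when its 3-month level was at least 2 times above or below both P10 libraries. Of 8806 genes with a mean of at least 10 CPM and at least 30 UMIs, 283 were higher at 3 months (3.21%) and 477 were lower (5.42%), which is 8.63% in either direction. The P10 libraries differed at least 2-fold in 143 genes (1.62%), of which 56 were higher in the mutant (0.636%) and 87 lower (0.988%). The median log2 ratio of the 3-month level to the mean of the P10 levels was -0.18 over all genes. Scaling by the median of ratios moved that median to -0.01, and then gave 374 genes higher and 344 lower, so that the share of higher genes went from 37.2% to 52.1%. List medians below are to be read against -0.18.

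**Figure D2:**
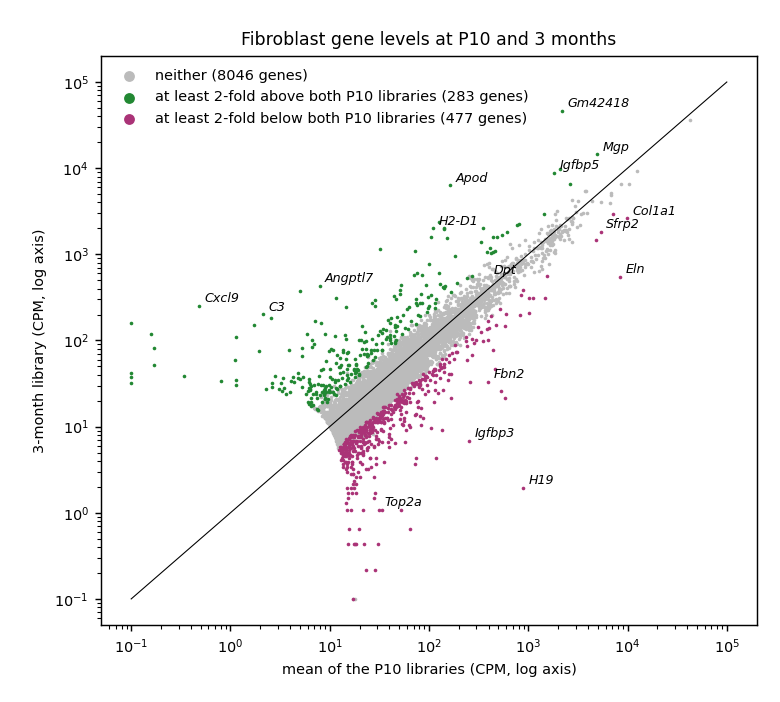
Each point is 1 of 8806 genes, with the mean CPM of fibroblasts in the P10 libraries on the x axis and the CPM in the 3-month library on the y axis, both on log axes with values under 0.1 drawn at 0.1. The 283 green points are at least 2-fold above both P10 libraries and the 477 purple points at least 2-fold below both, with H19 farthest below the line of equal level among genes over 100 CPM at P10.

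Elastic fibre genes were examined first. Eln, which encodes elastin (chromosome 5, 134702593 to 134747323, GRCm38) was at 6636, 10252 and 549 CPM, highest in the P10 mutant and lowest at 3 months. The 3-month level was 12.1 times (11.6 to 12.6) below the P10 control and 18.7 times (17.9 to 19.4) below the P10 mutant. Between the P10 libraries Eln was 1.54 times higher in the mutant (1.52 to 1.57), under the 2-fold limit. Fbn2, the fibrillin of developing microfibrils, was at 356, 434 and 33.3 CPM, whereas Fbn1, the fibrillin of adult tissue, was at 307, 341 and 320 CPM. The pair therefore differed in pattern, with Fbn2 10.7 times below the nearer P10 library and Fbn1 inside the P10 range. Mfap2, a microfibril protein, was at 920, 1097 and 210 CPM. Of 17 elastic fibre genes, all of which passed the level minimum, 5 were lower (Eln, Fbn2, Fbln2, Emilin1 and Mfap2) and 1 was higher, Efemp1, at 69.2, 56.9 and 247 CPM. The list median was -0.52.

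Among 8 fibrillar collagen genes that passed the minimum and were not used by the rule, 4 were lower at 3 months and none was higher, with a median of -1.00. Col1a1, a chain of type I collagen, was at 9355, 10585 and 2614 CPM, 3.58 times below the nearer P10 library. Col1a2, its partner chain, was at 6697, 7605 and 2969 CPM. Both P10 libraries were thus more than 2-fold above the 3-month library for both chains. Col5a1 and Col27a1 were the other called members, and Col5a2, Col5a3, Col11a1 and Col24a1 were not called. Of 10 non-fibrillar collagens that passed, 4 were lower (Col6a3, Col8a1, Col16a1 and Col26a1) and none higher, with a median of -0.86. Of 21 enzymes of collagen synthesis and crosslinking, 6 were lower and none higher, with a median of -0.59. Lox, which crosslinks collagen and elastin, was at 1041, 1174 and 312 CPM. P4ha1, a subunit of the enzyme that hydroxylates collagen proline residues, was at 54.3, 43.1 and 47.7 CPM.

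Of 16 basement membrane genes that passed, 1 was lower at 3 months, beside 5.42% of all genes. It was Nid2, at 56.2, 62.9 and 21.9 CPM, and the median was -0.35. Col4a1, a chain of basement membrane collagen, was at 758, 905 and 836 CPM, and Lamb2, a laminin chain, at 75.9, 79.1 and 79.5 CPM. Both genes were within 2-fold among the libraries. Among 8 small leucine-rich proteoglycans that passed and were not used by the rule, Prelp and Ecm2 were higher and Fmod and Aspn lower. Their median was 0.24, which became -0.18 at a minimum of 50 CPM and -0.07 with no minimum other than 10 UMIs.

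Matricellular genes moved both ways. Of 20 that passed, 4 were higher (Ccn5, Spon1, Mgp and Abi3bp) and 5 lower (Postn, Tnc, Fn1, Vcan and Cthrc1), with a median of -0.53. Postn, an adhesive protein of growing connective tissue, was at 471, 404 and 76.9 CPM. Vcan, a large proteoglycan of provisional matrix, was at 144, 186 and 21.3 CPM. Cthrc1, a secreted protein of collagen-making fibroblasts, was at 98.4, 109 and 9.67 CPM. These 3 were lowest at 3 months, while Mgp was there 2.79 times above the nearer P10 library and Abi3bp, which binds collagen, was at 381, 449 and 1188 CPM. Of 19 matrix proteases 8 were lower and 1 higher, with a median of -0.77. Tnc, an adhesive glycoprotein, and Mmp13, a collagenase among the lower proteases, were most abundant in a cluster of 14, 11 and 3 fibroblasts with bone genes, at 1032 against 15.4 CPM in the other fibroblasts for Tnc and 1167 against 7.43 CPM for Mmp13. Outside that cluster Tnc was at 31.5, 16.0 and 4.96 CPM, still at least 2-fold lower at 3 months. Mmp13 was there at 9.24, 10.7 and 4.32 CPM, on 27, 30 and 20 UMIs. These Mmp13 levels lie near or under the minimum of 10 CPM, and their difference rests on few UMIs. Mmp23, a metalloproteinase, was at 114, 118 and 45.1 CPM, and Mmp2, a gelatinase, at 528, 525 and 729 CPM. Of 14 protease inhibitors 7 were higher and 1 lower, with a median of 1.22. Cst3, the cysteine protease inhibitor cystatin C, was at 825, 795 and 2227 CPM, and Serping1, which inhibits the first component of complement, at 409, 476 and 1580 CPM. Serpine2, a serine protease inhibitor, was the lower member, at 348, 254 and 101 CPM.

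H19 (chromosome 7, 142575529 to 142578143), a long noncoding RNA made from the maternal allele, had 2711 and 2707 UMIs in the P10 libraries and 9 at 3 months. These counts were 861, 911 and 1.93 CPM. The 3-month level was 445 times (234 to 975) below the P10 control. Of 14 imprinted genes that passed the minimum, of 19 listed, 11 were lower at 3 months and none higher, with a median of -2.00. Mest was at 79.1, 66.0 and 3.65 CPM, and Dlk1, a membrane ligand that restrains differentiation of mesenchymal cells, at 18.7, 11.8 and 0.430 CPM. Cdkn1c, a cell cycle inhibitor, was at 660, 507 and 148 CPM. Meg3, a noncoding RNA of the Dlk1 locus, was at 1474, 1499 and 313 CPM. Sgce, Impact and Gnas passed but were not called, and Sgce was at 79.1, 89.9 and 76.1 CPM.

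The IGF genes were split by member. Igf1, a growth factor, was at 619, 1028 and 199 CPM, and Igf2, its fetal relative, at 645, 821 and 419 CPM, of which only Igf1 was called. Igfbp3, a binding protein that carries IGFs, was at 258, 247 and 6.88 CPM, 35.9 times (25.2 to 52.9) below the nearer P10 library. Igfbp5, a binding protein that attaches to matrix, went the other way, at 1837, 1830 and 8792 CPM. It was 4.79 times (4.66 to 4.92) above the P10 control. Igfbp6, which prefers IGF2, was at 84.8, 81.1 and 350 CPM, and Igfbp2, Igfbp4 and Igfbp7 were not called. In all 3 of 14 members were lower and 2 higher, with a median of -0.21. Cell cycle genes were lower in 15 of 18 that passed and higher in none, with a median of -2.77. Top2a, which untangles replicated DNA, had 80, 111 and 5 UMIs, or 25.4, 37.4 and 1.07 CPM. As 31.2 and 36.9% of these P10 UMIs lay in 1 cell of each library, the P10 levels of Top2a rest on few cells. A cluster led by Esco2, Aurkb and Mxd3 held 9, 17 and 1 fibroblasts and, of the summed UMIs of the 18 cell cycle genes, 31.9, 46.7 and 1.74%. Without it, 13 of the 18 were lower at 3 months, with a median of -1.94, but the level minimum was not applied again. Many of the 13 then held few UMIs, such as Mki67 with 10, 23 and 2 and Ube2c with 9, 6 and 3. Stmn1 was the most abundant of the 13, at 62.5, 55.0 and 6.46 CPM. Hmgb2, Pcna, Tyms, Tubb5 and H2afz were not called, and Tubb5 was at 394, 304 and 251 CPM. The count of 13 thus rests largely on genes near or under the minimum.

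Cartilage-related genes were also among those with wide ratios. Acan, the proteoglycan aggrecan of cartilage, had 70, 50 and 3 UMIs, of which 47, 16 and 1 lay in a cluster of 31, 12 and 25 cells led by Cnmd, and Col9a2, a cartilage collagen, was at 77.8, 71.0 and 4.30 CPM. Markers of chondrocytes summed to 261, 180 and 53.3 CPM, and of the 4 among 10 that passed the minimum 3 were lower. The part of cartilage cells in these values was not tested. Cpz, a secreted carboxypeptidase that binds Wnt proteins, was at 435, 491 and 47.1 CPM. Wnt16, a Wnt ligand, had 50, 51 and 5 UMIs. Among 24 genes of BMP, TGF-beta and Wnt signaling 2 were lower at 3 months, Sfrp2 and Wnt11. The median of that list was -0.17, close to that of all genes, and became 0.00 under scaling by the median of ratios. Among 21 genes of FGF, PDGF and hedgehog signaling 3 were higher and 4 lower, with a median of 0.12 that became -0.26 under stricter membership, -0.09 at a mitochondrial limit of 5% and -0.01 at a minimum of 50 CPM. Hhip, a membrane protein that binds hedgehog ligands, was at 50.5, 41.7 and 304 CPM, whereas Ptch1, a hedgehog receptor, was at 35.2, 39.4 and 23.9 CPM. Fgf7, a growth factor for epithelia, was at 32.7, 25.9 and 89.8 CPM, and Pdgfra, the receptor used widely to mark fibroblasts, at 200, 274 and 398 CPM without a call.

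**Figure D3:**
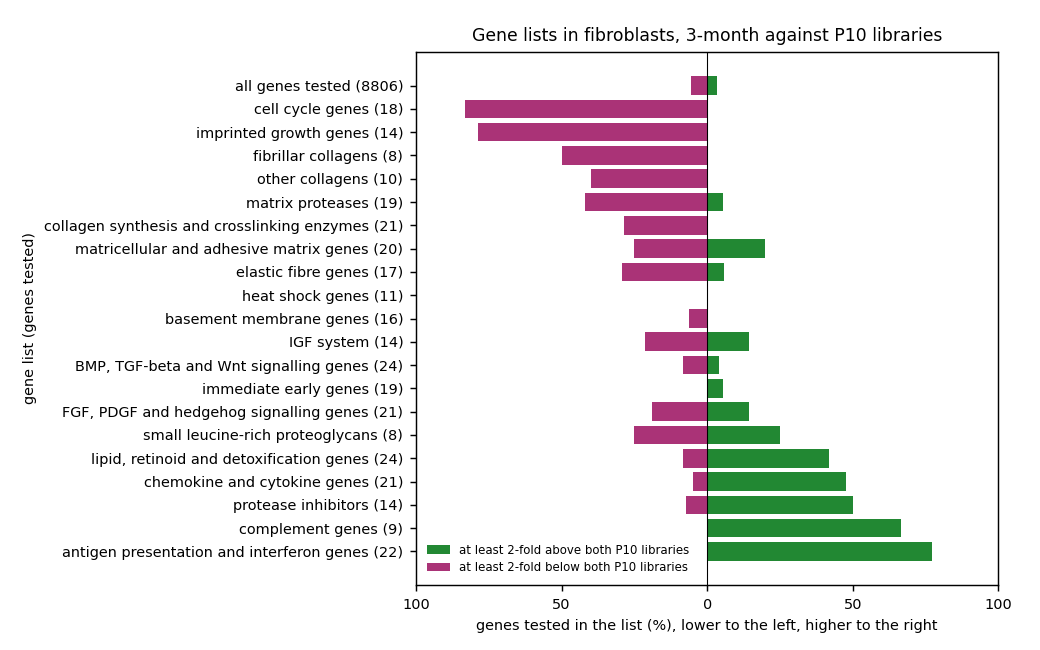
Bars give, for 20 gene lists and for all 8806 genes, the percentage of genes that passed the level minimum and were at least 2-fold above both P10 libraries at 3 months (green, to the right) or below both (purple, to the left), with lists ordered by their median log2 ratio. Cell cycle and imprinted genes lie at the lower end (15 of 18 and 11 of 14 lower), and complement and antigen presentation genes at the higher end (6 of 9 and 17 of 22 higher).

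Genes of antigen presentation and of the interferon response were higher at 3 months in 17 of 22 that passed the minimum and lower in none, with a median of 1.98. H2-D1 (chromosome 17, 35262730 to 35267499), a class I major histocompatibility chain that presents peptides, was at 105, 116 and 2005 CPM. It was 17.2 times (15.5 to 19.2) above the nearer P10 library. H2-K1, a further class I chain, was at 116, 94.2 and 1579 CPM, and B2m, the invariant subunit of class I molecules, at 374, 327 and 2021 CPM. The 2 P10 libraries were close together for each of these genes and the 3-month library was apart. H2-Q6, a nonclassical class I gene, had 0, 1 and 385 UMIs. Class I genes resemble one another in sequence, and how reads were split among them is uncertain. Psmb8 and Psmb9, subunits of the immunoproteasome, were at 37.5, 19.2 and 296 CPM and at 6.35, 5.38 and 118 CPM. Ly6a, a surface protein known as Sca-1, was at 39.4, 24.6 and 1138 CPM, and Tgtp2, an interferon-induced GTPase, had 5, 2 and 143 UMIs. Isg15, a ubiquitin-like protein induced by interferon, was at 99.1, 71.0 and 272 CPM, and Ifit3, an antiviral protein, at 49.2, 39.7 and 113 CPM. Ifit1, Ifi27, Ifitm1, Ifitm2 and Irf1 were not called, and Ifitm2 was at 1194, 1069 and 1383 CPM.

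The 250 bases before the first listed start of these genes were searched for the interferon-stimulated response element, which was taken as GAAA, any 2 bases and GAAA again, on both strands. It was present in 821 of 27025 genes (3.04%), and in 7 of the 18 listed antigen presentation and interferon genes that had an entry (B2m, Bst2, H2-T23, Ifit1, Ifit3, Ifitm2 and Isg15). Of these 7, Ifit1 and Ifitm2 were not called between the ages. H2-D1 and H2-K1 do not hold these exact letters in this window, and variants of the element were not searched. The match is a description of letters only. The sequences of 3 such genes, and of the chemokine gene Cxcl10 that also holds the element, are shown 5′ to 3′ on the strand of the gene with the element or its reverse complement in capitals, from RefSeq on GRCm38.p6. B2m lies at chr2:122147437-122147686 (plus strand), Ifit3 at chr19:34583279-34583528 (plus strand), Isg15 at chr4:156200819-156201068 (minus strand) and Cxcl10 at chr5:92348890-92349139 (minus strand).
B2m: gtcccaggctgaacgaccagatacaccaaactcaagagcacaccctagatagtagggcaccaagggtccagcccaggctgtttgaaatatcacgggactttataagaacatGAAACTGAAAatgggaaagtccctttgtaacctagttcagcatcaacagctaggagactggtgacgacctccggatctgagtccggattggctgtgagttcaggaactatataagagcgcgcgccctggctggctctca
Ifit3: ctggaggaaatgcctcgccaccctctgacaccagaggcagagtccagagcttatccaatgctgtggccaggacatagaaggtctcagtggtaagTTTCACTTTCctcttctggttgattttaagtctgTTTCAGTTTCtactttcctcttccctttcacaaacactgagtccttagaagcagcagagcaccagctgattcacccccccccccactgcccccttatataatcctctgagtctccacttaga
Isg15: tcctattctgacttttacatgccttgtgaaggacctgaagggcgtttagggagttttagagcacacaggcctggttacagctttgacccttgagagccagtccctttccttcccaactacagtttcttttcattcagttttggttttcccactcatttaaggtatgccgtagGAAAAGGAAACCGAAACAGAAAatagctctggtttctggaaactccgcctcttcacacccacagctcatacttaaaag
Cxcl10: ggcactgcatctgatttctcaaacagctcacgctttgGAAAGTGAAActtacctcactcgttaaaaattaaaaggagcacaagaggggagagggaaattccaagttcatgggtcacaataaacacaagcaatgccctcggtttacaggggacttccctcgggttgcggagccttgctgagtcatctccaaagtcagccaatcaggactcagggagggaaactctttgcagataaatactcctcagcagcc

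In B2m and Cxcl10 the element occurred 1 time, in Ifit3 2 times, and in Isg15 3 times in overlapping form. The levels of these genes are those given above and, for Cxcl10, in the next paragraph.

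Complement genes were higher in 6 of 9 that passed the minimum and lower in none, with a median of 1.49. C3, the central component, had 4, 9 and 936 UMIs, or 1.27, 3.03 and 201 CPM. It was 66.4 times (34.8 to 146) above the P10 mutant. C4b, a component of the classical pathway, was at 87.3, 81.5 and 580 CPM, and Cfb, a component of the alternative pathway, at 34.0, 23.6 and 251 CPM. For all 3 genes the 3-month library was apart from both P10 libraries. Of 21 chemokine and cytokine genes 10 were higher and 1 lower, with a median of 1.00. Ccl19, which attracts dendritic cells and T cells through CCR7, was at 66.0, 84.1 and 605 CPM. Ccl11, which attracts eosinophils, was at 29.8, 51.5 and 160 CPM. Cxcl12, a stromal chemokine for CXCR4, did not pass the limit, at 360, 314 and 305 CPM. Cxcl13, which attracts B cells, was the lower member, at 140, 94.9 and 4.30 CPM. Cxcl9 and Cxcl10, interferon-induced chemokines, were at 0.635, 0.337 and 251 CPM and at 18.4, 10.8 and 243 CPM. Their 3-month UMIs lay in few cells, since 36 of 445 fibroblasts held any Cxcl9 and 1 cell held 16.0% of it, and 1 cell held 20.9% of Cxcl10.

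Genes of lipid, retinoid and xenobiotic handling were higher in 10 of 24 that passed and lower in 2, Fabp5 and Crabp2, with a median of 0.71. Apod (chromosome 16, 31296192 to 31314808) had 602, 407 and 29384 UMIs. It was 33.0 times (30.5 to 35.9) above the P10 control and 46.1 times (41.8 to 51.0) above the P10 mutant. One P10 control cell held 33.6% of the Apod UMIs of its library, so the ratio to that library rests in part on that cell. Inmt, an N-methyltransferase, was at 565, 654 and 1810 CPM, and Gsn, which severs actin filaments, at 744, 782 and 2176 CPM. Hsd11b1, which regenerates active glucocorticoid, was at 9.21, 7.07 and 159 CPM, and Aldh1a1, which makes retinoic acid, at 2.86, 7.74 and 66.8 CPM. Crabp2, which carries retinoic acid, was lower, at 24.8, 32.3 and 1.72 CPM. Angptl7, a secreted angiopoietin-like protein, had 15, 33 and 2013 UMIs, and Ccn5, a matricellular growth regulator, was at 6.67, 6.73 and 102 CPM. These genes had low P10 levels, and the Angptl7 UMIs of the P10 libraries came largely from 1 cell each (80.0 and 66.7%).

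Genes that respond to handling were compared with these lists. Of 19 immediate early genes 1 was called, Atf3, at 517, 372 and 1067 CPM, and the median was 0.12. Fos, which is induced within minutes of a stimulus, was at 3316, 2950 and 4210 CPM. None of 11 heat shock genes was called, and the median was -0.38. Gm42418 and AY036118, noncoding RNAs that overlap ribosomal RNA sequence, and Lars2, a mitochondrial tRNA synthetase, were among the genes with the widest ratios. Gm42418 was at 1926, 2469 and 45973 CPM in fibroblasts and at 1440, 1719 and 36565 CPM in the remaining cells. The difference for this gene was therefore of like size in and outside fibroblasts. Lars2 was at 119, 132 and 2363 CPM against 92.5, 101 and 1675 CPM, and AY036118 was at 69.2, 74.7 and 1087 CPM in fibroblasts.

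Other cells of the libraries were set beside the fibroblasts for H2-D1, Eln, Igfbp5 and Mgp, and for collagens and H19. H2-D1 stood at 325, 276 and 1640 CPM in cells with at least 3 Rgs5 UMIs, at 659, 600 and 2161 CPM in cells with endothelial genes, and at 1475, 1426 and 2187 CPM in cells with Ptprc, the leukocyte gene CD45. The log2 ratio of the ages was 4.18 in fibroblasts, 2.45 in Rgs5 cells, 1.78 in endothelial gene cells and 0.59 in Ptprc cells. Fibroblasts at P10 had the lowest H2-D1 level of these 4 cell groups, and at 3 months a level within their range. For Eln the log2 ratio was -3.94 in fibroblasts and -3.46 in Rgs5 cells, where it stood at 870, 474 and 60.9 CPM. For Igfbp5 it was 2.26 in fibroblasts and 0.54 in Rgs5 cells, where the level was 222, 196 and 303 CPM. For Mgp it was 1.54 in fibroblasts and 0.10 in Rgs5 cells, at 3181, 3599 and 3638 CPM. Not every difference was larger in fibroblasts. Fibrillar collagen genes not used by the rule summed to 17596, 19793 and 6449 CPM in fibroblasts. In the remaining cells they summed to 9598, 11199 and 454 CPM, a wider difference. Bone gene cells there numbered 225, 192 and 56. H19 was at 34.0, 48.6 and 1.07 CPM in the remaining cells, so it was lower at 3 months there too. With 1 library per group these differences between cell groups were not tested.

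Values in single cells showed how widely each difference was spread. Per 10000 UMIs the median fibroblast had 30.9, 73.6 and 1.37 Eln UMIs, and 19, 8 and 147 fibroblasts had none. The median for H19 was 1.75, 3.28 and 0, with 442 of 445 fibroblasts at 0 at 3 months. For Apod it was 0.653, 0.860 and 33.0, and for H2-D1 0, 0 and 16.7. Most 3-month fibroblasts thus held Apod and H2-D1, and nearly all lacked H19. After each cell was thinned to 1000 UMIs, Apod was detected in 11.1, 13.1 and 82.5% of fibroblasts (54.2, 57.9 and 96.6% before thinning). In Ptprc cells, which should lack it, the thinned share was 0.791, 0.456 and 2.02%, at median depths of 9287, 8981.5 and 6071 UMIs. Eln was detected in 74.2, 82.2 and 24.7% of thinned fibroblasts (93.0, 96.9 and 67.0% before), against 1.19, 2.58 and 0.196% of Ptprc cells. H19 was detected in 38.0, 39.4 and 0.225% of thinned fibroblasts (62.7, 70.7 and 0.674% before). C3 was detected in 0 of 271, 0.386% and 15.3% (1.11, 3.09 and 36.2% before). Ptprc cells, of which some kinds are known to express C3, had it in 7.71, 7.29 and 2.74% after thinning (25.7, 23.1 and 13.7% before), so that the P10 shares of fibroblasts lay below that of Ptprc cells. Over 20 repeated draws the 3-month share was 10.1 to 15.1% for C3 and 77.8 to 82.2% for Apod, and the single draw above lay slightly over both ranges.

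**Figure D4:**
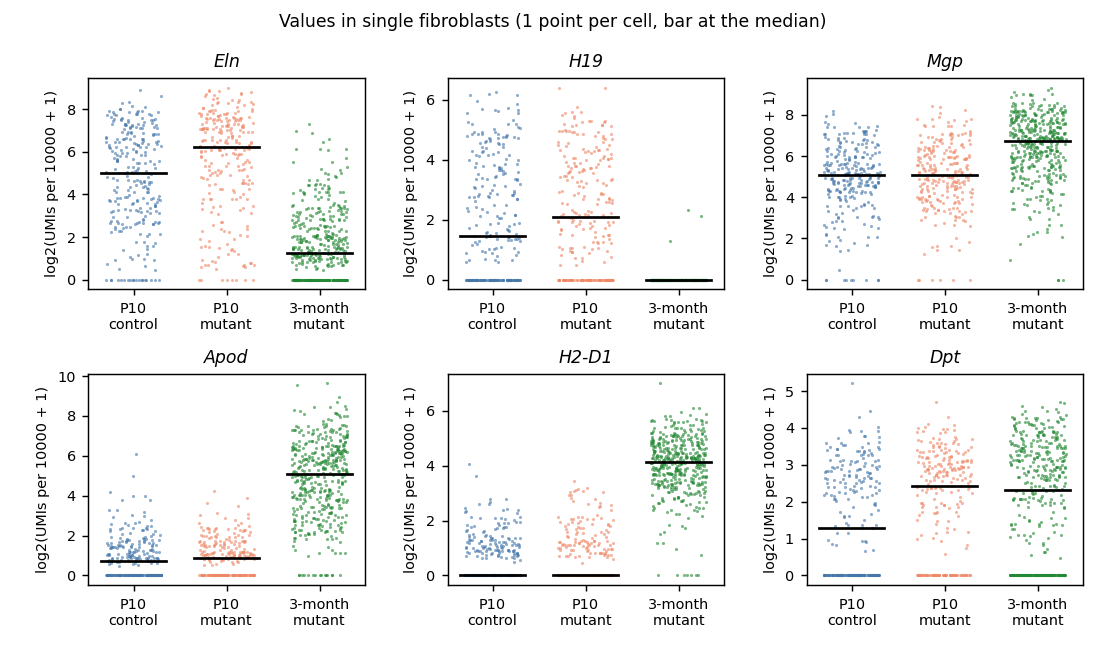
Each point is 1 fibroblast, in panels for Eln, H19, Mgp, Apod, H2-D1 and Dpt, on a y axis of log2(UMIs per 10000 + 1), with the P10 control, P10 mutant and 3-month mutant side by side and a black bar at the median. Eln and H19 points lie mostly near 0 at 3 months and Apod and H2-D1 points mostly near 0 at P10, while Dpt spreads over the same range in all libraries.

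The fibroblasts fell into 11 clusters, whose defining genes are descriptions because they chose the clusters. A cluster led by Eln held 108, 139 and 0 cells, with Igf1 at 1450 CPM, and a cluster led by Epha5 held 86, 59 and 0 cells. At 3 months most cells lay in clusters that held few P10 cells. A cluster with Scn7a, C3, Cd34, Il6 and Ccl19 among its leading genes held 2, 3 and 172 cells, and Dcn there was at 15488 CPM. A cluster with Klhdc8a, Pappa2, Cyp26b1 and Ackr4 held 0, 4 and 95 cells, with Hhip at 790 CPM, Angptl7 at 1093 CPM and Mgp at 19653 CPM. Its first genes were S100a9 and S100a8, which came largely from single cells. A cluster with Hsd11b1, Fmo2 and Lepr held 0, 0 and 83 cells, led by the gland gene Bpifa1, and a cluster with Coch, Pax1 and Epyc held 1, 0 and 42 cells. Igha and Jchain, genes of plasma cells, were also among the first genes of the Coch cluster, at 633 against 49.8 CPM and 124 against 19.5 CPM in the other fibroblasts. Apod was at 2647 CPM in the Hsd11b1 cluster and at 6816 to 8035 CPM in the other 3 clusters made up mostly of 3-month cells. H2-D1 was similar in all 4, between 1893 and 2114 CPM. With 1 library per age, a cluster of mostly 1 library may be that library and not a cell type.

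A cluster led by Cnmd, S100b, Comp and Scx was the only one with at least 10 cells of each library (31, 12 and 25), and the ages could be compared within it. It held markers of both cartilage and tendon and was left unnamed. In it H19 was at 2148, 2774 and 47.2 CPM, Apod at 170, 200 and 4042 CPM, and H2-D1 at 92.0, 114 and 982 CPM. Col1a1 was at 8006, 4791 and 1123 CPM, and Eln at 933, 415 and 121 CPM. Mgp was at 4724, 4748 and 11932 CPM. Each of these genes was on the same side at 3 months as in all fibroblasts. Igfbp5, at 544, 1044 and 630 CPM, and Sfrp2, at 4148, 4519 and 6100 CPM, were not. Igfbp5 lay between the P10 values and Sfrp2 above them. Hhip, at 111, 50.1 and 10.5 CPM on 41, 7 and 2 UMIs, was below both P10 values, unlike in all fibroblasts. Igf1, at 176, 493 and 210 CPM, and Igfbp6, at 10.8, 42.9 and 31.5 CPM on 4, 6 and 6 UMIs, lay between the P10 values. The placing of Hhip and Igfbp6 rests on these few UMIs. C3, Ccl11 and Cxcl9 had no UMIs in this cluster in any library. Igfbp3, at 306, 114 and 15.7 CPM, and B2m, at 409, 257 and 1034 CPM, were on the same side as in all fibroblasts. Igfbp3 had 113, 16 and 3 UMIs there, the last in 1 cell.

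**Figure D5:**
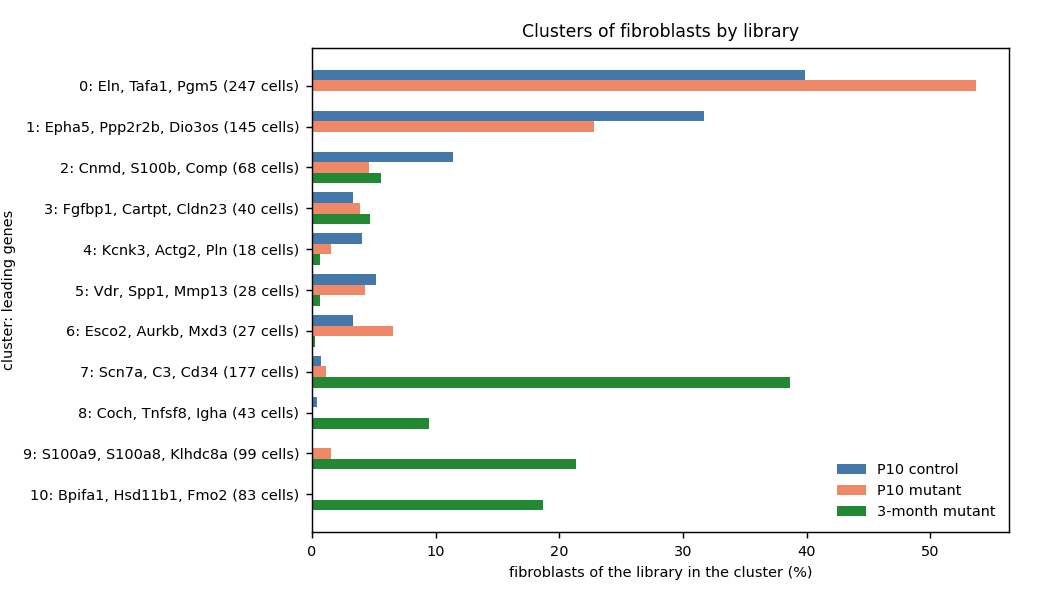
Bars give the percentage of each library's fibroblasts in each of 11 clusters, named on the y axis by number, first 3 leading genes and cell number. The Eln cluster held 39.9% of P10 control and 53.7% of P10 mutant fibroblasts and 0% at 3 months, and the Scn7a cluster held 38.7% of 3-month fibroblasts and under 2% of each P10 library.

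Clusters led by genes of other cell types were also present among the fibroblasts. Cells with epithelial genes numbered 9, 10 and 21 and had a median of 17722 UMIs, cells with smooth muscle genes such as Myh11 numbered 11, 4 and 3, and cells with the bone genes Spp1, Sp7 and Alpl numbered 14, 11 and 3. Summed over marker lists, without the genes of the rule, epithelial genes stood at 518, 451 and 303 CPM. Bone genes stood at 1103, 373 and 119 CPM. Smooth muscle and pericyte genes stood at 5403, 4883 and 4691 CPM, against 1347, 908 and 743 CPM in the remaining cells. With Rgs5 included, they summed to 4656 CPM in the fibroblasts outside the Myh11 cluster. Acta2, a gene of this list, had UMIs in 234 of 271, 226 of 259 and 357 of 445 fibroblasts. This sum was therefore not confined to the Myh11 cluster. Immune genes summed to 107, 636 and 497 CPM, with S100a9 at 21.9, 282 and 152 CPM, of which 1 cell held 85.7% in the P10 mutant. Endothelial genes summed to 100, 168 and 148 CPM, neuronal genes to 996, 925 and 765 CPM, and glial genes to 39.4, 35.7 and 59.3 CPM. Gland genes summed to 506, 128 and 2989 CPM in fibroblasts and to 11525, 5317 and 26932 CPM in the remaining cells. Of 9 gland genes that passed the minimum, 8 were higher at 3 months and 8 were lower in the P10 mutant than in the P10 control. Among them Obp2a, an odorant-binding protein, was at 243, 57.6 and 1550 CPM against 4687, 2102 and 13724 CPM. The part of these genes in the differences was not tested, but without the epithelial, smooth muscle and bone clusters 278 genes were higher and 499 lower, of which 244 and 416 were among the 283 and 477.

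The P10 libraries were then compared to ask whether fibroblasts differed between the genotypes. Tfap2e had 1, 64 and 44 UMIs in fibroblasts, or 0.318, 21.5 and 9.45 CPM, against 10.2, 170 and 56.1 CPM in the remaining cells. Of the P10 mutant fibroblast UMIs, 23.4% lay in 1 cell. After thinning, Tfap2e was detected in 2.70% of P10 mutant fibroblasts and 2.89% of Ptprc cells (16.2 and 14.4% before). In the 3-month mutant these shares were 0.674 and 1.57% (8.09 and 8.56% before). Thinned detection in fibroblasts was thus no higher than in these background cells. Expression of the transgene by fibroblasts was not tested. Of the 56 genes higher and 87 lower in the mutant, 12 and 10 met the limits for spread over cells and for level against the remaining cells. AA465934, a noncoding transcript, was at 18.1 and 49.8 CPM, 2.75 times higher in the mutant (2.01 to 3.80), and at 16.4 and 38.6 CPM in the remaining cells. Adamtsl5, a microfibril-associated protein, was at 8.26 and 20.2 CPM, and Ikzf4, a zinc finger transcription factor, at 15.2 and 32.6 CPM. Limch1, an actin-associated protein, was lower in the mutant, at 36.5 and 11.4 CPM, 3.19 times (2.16 to 4.83). Ndnf, a secreted neurotrophic protein, was at 39.7 and 14.8 CPM and Cdc42ep3, an effector of the GTPase CDC42, at 138 and 64.6 CPM. Adm, a vasodilator peptide, was at 53.0 and 25.2 CPM. Tbcd, Cbx7 and B130024G19Rik were 2.74, 2.37 and 2.15 times higher in the mutant, and A930005H10Rik and Bag4 2.78 and 2.20 times lower. These genes were picked for their wide ratios, so the fact that the intervals exclude 1 adds no support. The intervals cover counting error only, and genotype and library cannot be told apart. Sfrp4 and Ccn3 had larger ratios, at 23.5 and 2.36 CPM and at 37.2 and 6.39 CPM, with 47.3 and 41.9% of the control UMIs in 1 cell.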

How the data were processed

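The VNOs of male mice were dissociated with papain and collagenase, frozen as suspensions and profiled with 10x Genomics 3' chemistry. Per the file headers the authors made the deposited values, whole counts of UMIs per gene and barcode, with Cell Ranger (4.0.0 at P10, 6.0.1 at 3 months). Per the labels the reads were aligned to mm10. The counts are not normalised. The study's text does not describe the mutant libraries, so groups were taken from the labels.

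Barcodes with 200 to 9000 genes, at least 1000 UMIs and at most 10% mitochondrial UMIs were kept, which left 4305, 3741 and 5307 of 8202, 8864 and 10293. Fibroblasts were selected with the rule given in the report, and neither doublets nor free RNA were removed. Counts were summed over fibroblasts and scaled to CPM. CPM have exact Poisson intervals, ratios conditional exact binomial intervals and shares exact Clopper-Pearson intervals at 95%. A count of 0 was taken to allow 3 counts. With 1 library per group no test, p-value or SD was computed. Genes needed a mean of 10 CPM and 30 UMIs in all.

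Genes were named by rule: the 12 with the widest ratio of the 3-month level to the nearer P10 library in each direction, and the 6 with the widest ratio between the P10 libraries, each with at most 10% of UMIs in 1 cell of the library where it was higher and at least the level of the remaining cells there; the 15 with the largest lowest ratio to the remaining cells; and members of gene lists. The fibroblasts and the gene lists were chosen with earlier results of these data known. Sfrp4, Ccn3, S100a9 and the leading genes of clusters were chosen after their values were seen.

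Fibroblasts were clustered with scanpy 1.11.5 and leidenalg 0.10.2 on 2000 variable genes, 20 principal components and 15 neighbours at resolution 0.5, without integration. Detection was compared after thinning to 1000 UMIs. Cells with at least 2 Ptprc UMIs outside the fibroblasts served as background. Gene coordinates came from GENCODE M21, which held 32235 of 32285 gene identifiers. The calls were checked on simulated counts that held counting error only, with changes wider than the fold limit. These counts had no spread between cells or libraries. The check therefore covers the working of the calls and not their error rate in these data. Alternatives covered cell filters, membership, doublets, scaling, the level minimum and the fold. A few genes are not reported here.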

Additional observations from a re-analysis of the deposited data

How the results depend on the processing

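No gene named by rule for its ratio between libraries reversed its direction under the alternatives run. Most of these genes were picked for wide ratios, so a reversal was unlikely from the start. Over these and some further genes, 382 checks of the log2 ratio stayed inside the counting interval of the main result and 108 moved outside it. List counts were checked for size and not for direction. Some list medians did change sign, with the values given in the report. They were those of the small leucine-rich proteoglycans, the FGF, PDGF and hedgehog genes, and the BMP, TGF-beta and Wnt genes. The last moved only to 0.00, just above zero. No paired analysis was possible because each group had 1 library, and no replicate could be left out. The fibroblast share of the P10 control became 7.23% at a mitochondrial limit of 5%, 7.36% with at least 2000 UMIs, 3.79% under stricter membership, 7.48% with at least 1 Dcn UMI and 5.51% without the clusters of other cell types. That of the P10 mutant became 4.46% under stricter membership and 7.86% with at least 1 Dcn UMI, and that of the 3-month mutant 5.95% under stricter membership and 7.44% without fibroblasts that held marker UMIs of other cell types. The settings on Dcn and on clusters, the cell cycle cluster included, were chosen after seeing the data.

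The counts of 283 genes higher and 477 lower at 3 months became 114 and 123 at a minimum of 50 CPM, 686 and 1314 with no minimum other than 10 UMIs, and 143 and 160 at a fold of 3, by construction. The 56 genes higher and 87 lower in the P10 mutant became 231 and 229 at the 5% mitochondrial limit, which left 108 fibroblasts in the P10 control, 8 and 19 at 50 CPM, 601 and 701 with no minimum, and 19 and 40 at a fold of 3. Under stricter membership 91 were higher, and the cause was not tested.

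Among lists, 3 elastic fibre genes in place of 5 were lower under scaling by the median of ratios, and 8 cell cycle genes in place of 15 at the 5% mitochondrial limit, the cause of which was not tested. At 50 CPM, where fewer genes were examined, 4 matrix proteases, 7 imprinted and 2 cell cycle genes were lower, and 4 protease inhibitors, 6 chemokine and 4 lipid genes were higher. Scrublet marked 0, 2 and 0 barcodes at its own threshold and so gave no usable doublet call, and without its highest-scoring barcodes 286 genes were higher and 479 lower at 3 months. Counts of 0 to 3 UMIs, as for H2-Q6 at P10, limit what depth can resolve.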
